A study of Homo sapiens with 6 samples.

Results

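Glycolysis genes and genes of the response to low oxygen were examined after siRNA against GNE in Capan-1, a long-established line from a human pancreatic carcinoma. The set holds 39 named genes, 24 of glycolysis and 15 of the hypoxia-inducible factor (HIF) pathway, which are described apart. A gene entered with the probe set annotated to it alone that had the highest mean over the 6 arrays, and a probe set marked as prone to cross-hybridisation (an identifier ending in _x_at) only where it had no other. In this way 36 of the 39 genes had a probe set, 22 of glycolysis and 14 of HIF, out of 19775 genes with a probe set in the whole series. CA9, SLC16A1 and SLC16A3 had none, and their expression is not analysed here.

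GNE encodes the enzyme that starts sialic acid synthesis from UDP-GlcNAc. Per the labels, 3 arrays carried RNA of cells given siRNA against GNE (siGNE) and 3 carried RNA of cells given a control siRNA named allStar, and the titles number both groups 1 to 3. The cells of all 6 samples were of the same line, were transfected 2 times 48 h apart, were kept under 5% CO2 in RPMI medium with 15% serum, and were collected 72 h after transfection 2. The labels name no low-oxygen treatment in either group, and give neither an oxygen level nor the number of siRNA sequences.

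Glycolysis breaks glucose down to pyruvate in the cytosol, and tumour cells commonly run it at a high rate and reduce the pyruvate to lactate. HIF is a pair of an oxygen-labile alpha subunit, HIF1A or EPAS1, and the stable partner ARNT. When oxygen is present, prolyl hydroxylases of the EGLN family mark the alpha subunit for degradation through the VHL ubiquitin ligase, so HIF activity is set mainly at the protein level. When oxygen is low, HIF binds hypoxia response elements. It then raises transcription of vessel growth factors, of enzymes for collagen hydroxylation and histone demethylation, and of much of glycolysis. VEGFA and DDIT4 are also known targets of ATF4, the transcription factor of the amino acid and endoplasmic reticulum stress responses.

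The values are log2 expression values as deposited. GNE itself read 11.12, 11.47 and 10.86 in control arrays 1 to 3 and 8.39, 9.86 and 9.57 in siGNE arrays 1 to 3, and the difference of -1.88 (SE 0.29) left 27.2% of the control level (limma adjusted p = 0.0348 with arrays of the same number treated as a pair, 0.131 without). Array medians ran from 2.96 to 3.02, and values near 3 lie at background, so genes with a mean of 4 or less were not tested. All 9 ductal carcinoma markers read between 10.31 and 15.45 and none of them passed, and the 9 acinar, leukocyte and endothelial markers with a probe set stayed at or under 3.44. Of the fibroblast markers, COL1A2, PDGFRB, DCN and LUM were at background, and COL1A1 (control mean 8.03, siGNE mean 8.74) rose by 0.71 (limma adjusted p = 0.0441), and its part in the results on the members was not tested.

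Of the 39 genes, 31 could be tested, 18 of glycolysis and 13 of HIF. VEGFA, ADM and NDRG1, which are HIF targets, rose by 0.59 to 1.06 on the log2 scale, and none of the 31 genes fell. None of the 18 glycolysis genes passed in either direction. The 3 of 31 that passed are 9.68% of the members, against 9.89% of all 10733 genes tested the same way (4.11% rose and 5.79% fell), so the share as a whole stands at the background. Within the HIF genes 3 of 13 rose (23.1%, against 4.11% of all genes), a description of a small list without a test. The list was chosen with earlier results of these data known, so this share is no evidence of an excess. In bulk RNA a change in the share of cells that express a gene and a change in RNA per cell cannot be told apart. A gene passed at an adjusted p under 0.05 in limma, fitted over 22085 probe sets with the title number as a block.

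**Figure D1:**
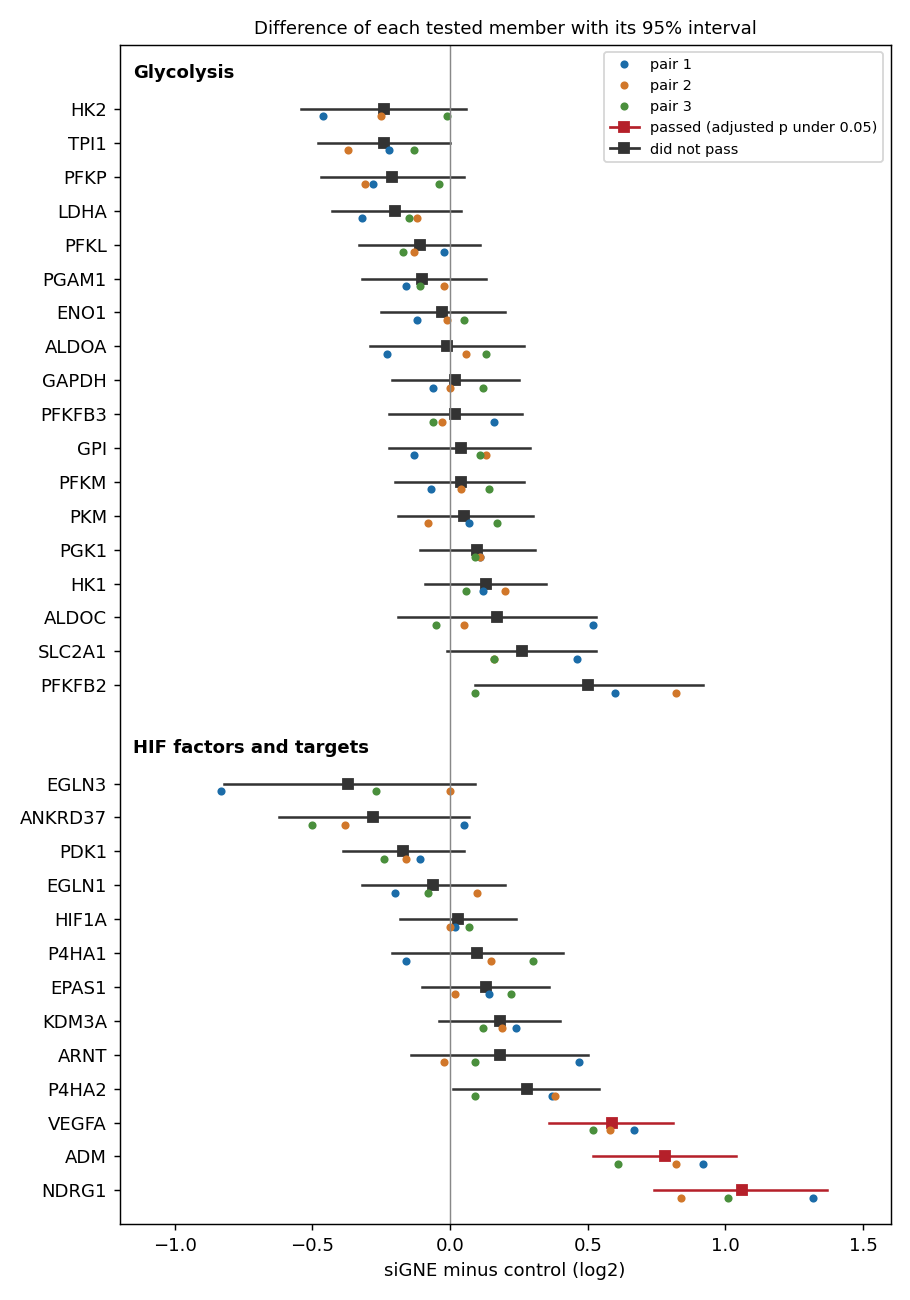
Log2 difference, siGNE minus control, for the 18 tested glycolysis genes and the 13 tested HIF genes. Squares are means over the 3 pairs with limma's 95% interval, small points are the 3 pairs, and red marks the genes that passed. NDRG1, ADM and VEGFA stand to the right of 0.5 with all 3 pairs above 0.5, while the glycolysis genes lie between -0.24 and 0.50.

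The HIF subunits come first. HIF1A read 14.55, 14.34 and 14.39 in the control arrays and 14.56, 14.34 and 14.47 in the siGNE arrays. EPAS1, the alternative alpha subunit, read 11.47, 11.45 and 11.01 against 11.61, 11.48 and 11.23. ARNT read 8.17, 8.41 and 8.47 against 8.64, 8.39 and 8.56. The groups overlapped for all 3 genes, and the differences were 0.03 for HIF1A (95% interval -0.18 to 0.24), 0.13 for EPAS1 (-0.10 to 0.36) and 0.18 for ARNT (-0.14 to 0.50), none of which passed in limma. A transcript level says nothing of the amount of HIF protein, which was not measured in these data.

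Of the 12 named HIF targets, 10 were tested and 3 rose. NDRG1, a stress-responsive gene linked to differentiation, had the largest difference of the set. Its control arrays read 8.61, 8.16 and 8.20 and its siGNE arrays 9.94, 9.00 and 9.21. The lowest siGNE array lay above the highest control array, as for 9.42% of all tested genes, and the pairs differed by 1.32, 0.84 and 1.01. NDRG1 thus rose by 1.06 (SE 0.12), a ratio of 2.08-fold (limma adjusted p = 0.0259).

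ADM encodes adrenomedullin, a secreted vasodilator peptide. Its control arrays read 10.01, 8.92 and 8.88 and its siGNE arrays 10.93, 9.74 and 9.48. The siGNE array was the higher in every pair, by 0.92, 0.82 and 0.61, but the groups overlapped, because control array 1 read above siGNE arrays 2 and 3. ADM rose by 0.78 (SE 0.10), a ratio of 1.72-fold (limma adjusted p = 0.0284), and the same difference had a limma adjusted p of 0.532 when the pairs were ignored.

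VEGFA encodes the main growth factor of blood vessels. Its control arrays lay within a narrow range at 11.92, 11.92 and 11.90, and its siGNE arrays read 12.59, 12.50 and 12.42. The groups did not overlap, as was also so for 9.42% of all tested genes in this direction. VEGFA rose by 0.59 (SE 0.09), a ratio of 1.50-fold (limma adjusted p = 0.0327). Its 3 other probe sets, which share transcripts with it and are no independent evidence, rose as well, by 0.77, 0.63 and 0.53 (limma adjusted p = 0.0256, 0.0468 and 0.0450).

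These 3 rises need the pairing and the filter on low values. Without the pair term 0.028% of all genes passed in limma, none of them a member, and the adjusted p were 0.110 for VEGFA, 0.532 for ADM and 0.176 for NDRG1, and with all 54613 probe sets kept they were 0.112, 0.155 and 0.170, a setting in which no probe set of the series passed and 7167 had an unadjusted p under 0.05. With the arrays of number 1, 2 or 3 left out none of the 3 genes passed in limma either, at adjusted p from 0.0698 to 0.144, and their differences stayed between 0.55 and 1.17.

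**Figure D2:**
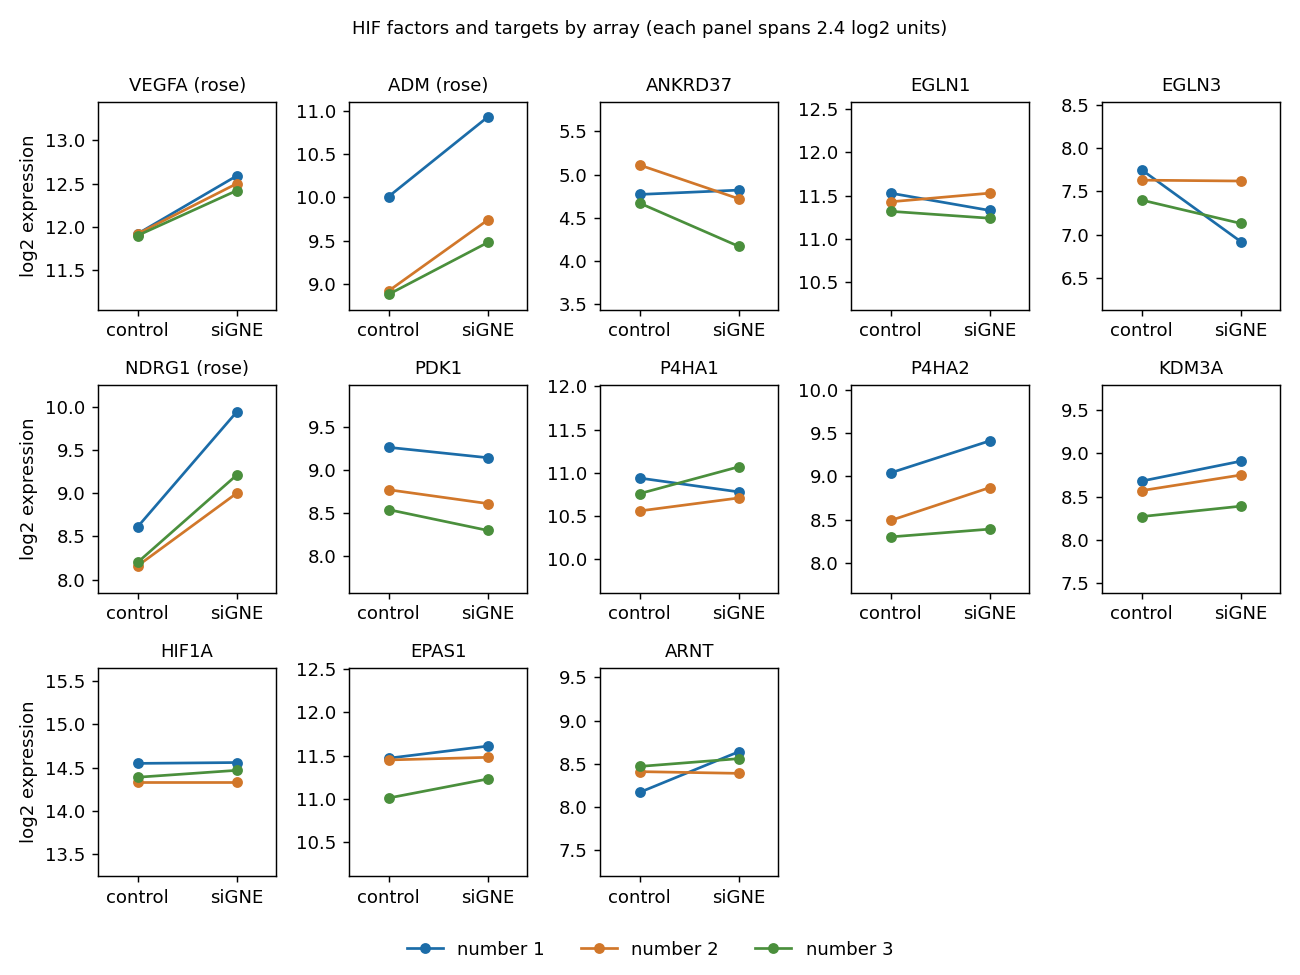
Log2 expression of the 13 tested HIF genes on each array. Lines join the control and siGNE arrays of the same title number, and every panel spans the same 2.4 log2 units. The lines of VEGFA, ADM and NDRG1 climb in all 3 pairs, those of HIF1A are nearly flat, and ADM, PDK1 and P4HA2 differ more between pairs than within them.

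The other 7 tested HIF targets did not pass. PDK1, a kinase that switches the pyruvate dehydrogenase complex off, read 9.26, 8.77 and 8.54 in control arrays and 9.14, 8.61 and 8.30 in siGNE arrays. It was lower in every siGNE array than in its partner, by 0.11, 0.16 and 0.24, at a limma adjusted p of 0.239. Another PDK1 probe set of lower signal was uneven, at -0.29, -0.02 and 0.52 in the pairs, and differed by 0.07. The mean of the PDK1 probe sets differed by -0.03. The collagen prolyl hydroxylase subunits P4HA1 and P4HA2 differed by 0.10 (95% interval -0.21 to 0.41) and 0.28 (0.01 to 0.54), and the histone demethylase KDM3A by 0.18 (-0.04 to 0.40). The P4HA2 value depends on the probe set, since another of lower signal differed by -0.95 (-1.64 to -0.26, limma adjusted p = 0.0867) and the mean of its probe sets by -0.22. The oxygen sensors EGLN1 and EGLN3, which are both HIF targets and brakes on HIF, differed by -0.06 (-0.32 to 0.20) and -0.37 (-0.82 to 0.09). On this probe set the EGLN3 difference came mostly from the first pair, at -0.83 against 0.00 and -0.27 in the others. Another EGLN3 probe set was lower in all 3 pairs, at -0.71, -0.27 and -0.36. It differed by -0.45 (-0.75 to -0.14) and did not pass either (limma adjusted p = 0.0792). ANKRD37, a HIF target named for its ankyrin repeats, read between 4.17 and 5.11 over the 6 arrays, close to the limit for testing, and differed by -0.28 (-0.62 to 0.07). BNIP3, which encodes a mitochondrial death and mitophagy receptor, stayed between 2.29 and 2.35 on all 6 arrays, at background, and was not tested. The median difference of the 13 HIF genes was 0.13, with 0.14, 0.10 and 0.09 in the 3 pairs, against -0.02 for all tested genes.

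Among the transporters and entry enzymes of glycolysis no gene passed. SLC2A1, the basal glucose transporter of most cells, read 8.90, 8.75 and 8.38 in control arrays and 9.36, 8.91 and 8.54 in siGNE arrays. It was higher in each siGNE array than in its partner, and its difference of 0.26 (95% interval -0.01 to 0.53) had a limma adjusted p of 0.167. The high-affinity transporter SLC2A3 was at background, between 2.68 and 2.77. Hexokinases trap glucose as its phosphate. HK2, the inducible form, read 9.67, 9.78 and 10.27 in control arrays and 9.21, 9.53 and 10.26 in siGNE arrays. The groups overlapped, and the differences of -0.46, -0.25 and -0.01 in the pairs averaged -0.24 (-0.54 to 0.06). The housekeeping form HK1 differed by 0.13 (-0.09 to 0.35). Every siGNE array of HK1 lay above every control array, as for 9.42% of all tested genes.

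The regulated step of the pathway is phosphofructokinase, and the bifunctional PFKFB enzymes make and break its allosteric activator. PFKFB2 had the largest difference of the glycolysis genes, at 0.50 (95% interval 0.09 to 0.92), and did not pass (limma adjusted p = 0.110). It read 6.42, 6.40 and 6.31 in control arrays and 7.02, 7.21 and 6.41 in siGNE arrays, so that siGNE arrays 1 and 2 stood above the controls and siGNE array 3 stood close to control array 2. PFKFB3, a HIF target in other cells, read 9.08, 8.96 and 8.62 against 9.24, 8.92 and 8.56, with overlapping groups and a difference of 0.02 (-0.22 to 0.26). PFKFB4 was at background, at 3.42, 3.05 and 3.03 against 3.07, 3.35 and 3.04. The phosphofructokinase subunits PFKL (-0.11), PFKM (0.04) and PFKP (-0.21) did not pass, with limma adjusted p between 0.222 and 0.813. Every siGNE array of PFKP lay below every control array, as for 13.9% of all tested genes.

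From aldolase to pyruvate kinase the differences were small. Aldolases split the hexose bisphosphate, and ALDOA differed by -0.01 (95% interval -0.29 to 0.27) and ALDOC by 0.17 (-0.19 to 0.53). TPI1, which interconverts the triose phosphates, was lower in every pair, at -0.22, -0.37 and -0.13, and had a limma adjusted p of 0.156. GPI, the isomerase of glucose phosphate, differed by 0.04 (-0.22 to 0.29) and GAPDH, the oxidising step, by 0.02 (-0.21 to 0.25). PGK1, which makes the first ATP of the pathway, differed by 0.10 (-0.11 to 0.31), with 0.11, 0.11 and 0.09 in the pairs. The PGK1 value depends on the probe set. Another of lower signal was lower in every pair, at -0.29, -0.08 and -0.35, and did not pass (limma adjusted p = 0.172). Further ones differed by 0.00 and 0.05, and the mean of the PGK1 probe sets by 0.02. PGAM1 (-0.10) and ENO1 (-0.03) did not pass, and the neuronal enolase ENO2 was at background, between 2.19 and 3.34. PKM, the pyruvate kinase of proliferating cells, differed by 0.05 (-0.19 to 0.30), while a further PKM probe set of lower signal (control mean 5.92, siGNE mean 6.75) rose by 0.83 (limma adjusted p = 0.0456).

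Lactate dehydrogenase closes the pathway. LDHA, whose enzyme favours lactate, read 15.12, 14.87 and 14.93 in control arrays and 14.81, 14.74 and 14.78 in siGNE arrays. Every siGNE array lay below every control array, as was so for 13.9% of all tested genes, but the difference of -0.20 (95% interval -0.43 to 0.04) did not pass (limma adjusted p = 0.211). LDHB, whose enzyme favours pyruvate, stayed between 1.97 and 2.01 on all 6 arrays, at background, as did its other probe set. An array level at background is a bound on the transcript and does not show that the gene is silent. The same holds for BNIP3, SLC2A3, ENO2 and PFKFB4.

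Taking the 18 tested glycolysis genes as a list, 4 were higher and 6 lower in all 3 pairs on the chosen probe sets. The same count was not made over all tested genes, so these counts have no background and are description only. The median difference of the 18 genes was 0.02. Their median absolute difference of 0.11 stood beside 0.18 for the HIF genes and 0.19 for all tested genes. An unadjusted p under 0.05 with the block was reached by 2 of the 18 (TPI1 and PFKFB2) and by 4 of the 13 HIF genes, against 32.5% of all genes, and without the block in limma by 0 and 2, against 16.3%. On the chosen probe sets and with the block, the 95% intervals of the 15 tested glycolytic enzymes all lay between -0.54 and 0.53. Changes in array signal beyond 0.69-fold or 1.45-fold thus lay outside all of these intervals. Other probe sets reached further, PKM at 0.83 (0.41 to 1.24) and PFKL at -0.34 (-0.59 to -0.10, limma adjusted p = 0.0818). Without the block the intervals of the chosen probe sets of HK2 (-0.98 to 0.50) and PKM (-0.50 to 0.61) were wider. Some enzymes read high, GAPDH up to 15.77 and LDHA up to 15.12, where the highest value of the series was 16.3. Whether differences are compressed at such signal was not tested. Among the members' 27 other probe sets that could be tested, 4 rose, 3 of VEGFA and 1 of PKM, and 0 fell, where 9.49% of all tested probe sets passed in either direction.

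Levels also differed between pairs. The array of number 1 was the highest of its group in both groups for 8 of the 13 HIF genes and for 6 of the 18 glycolysis genes, against 22.2% of all tested genes. The 8 were VEGFA, ADM, NDRG1, PDK1, P4HA2, KDM3A, HIF1A and EPAS1. In some the lead was slight, since control arrays 1 and 2 both read 11.92 for VEGFA, and 11.47 and 11.45 for EPAS1. The pair means of ADM spanned 1.29 and those of P4HA2 and PDK1 0.88 and 0.78, more than the difference between siGNE and control in each. HK2, PFKL, TPI1 and PKM instead had their highest array in number 3 in both groups, and the pair means of HK2 spanned 0.82. For 23 of the 31 members the span between pair means exceeded the siGNE difference, close to the share in all tested genes (74.2% against 71.1%). The labels do not say what the numbers stand for, and the cause of the differences between pairs was not tested.

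**Figure D3:**
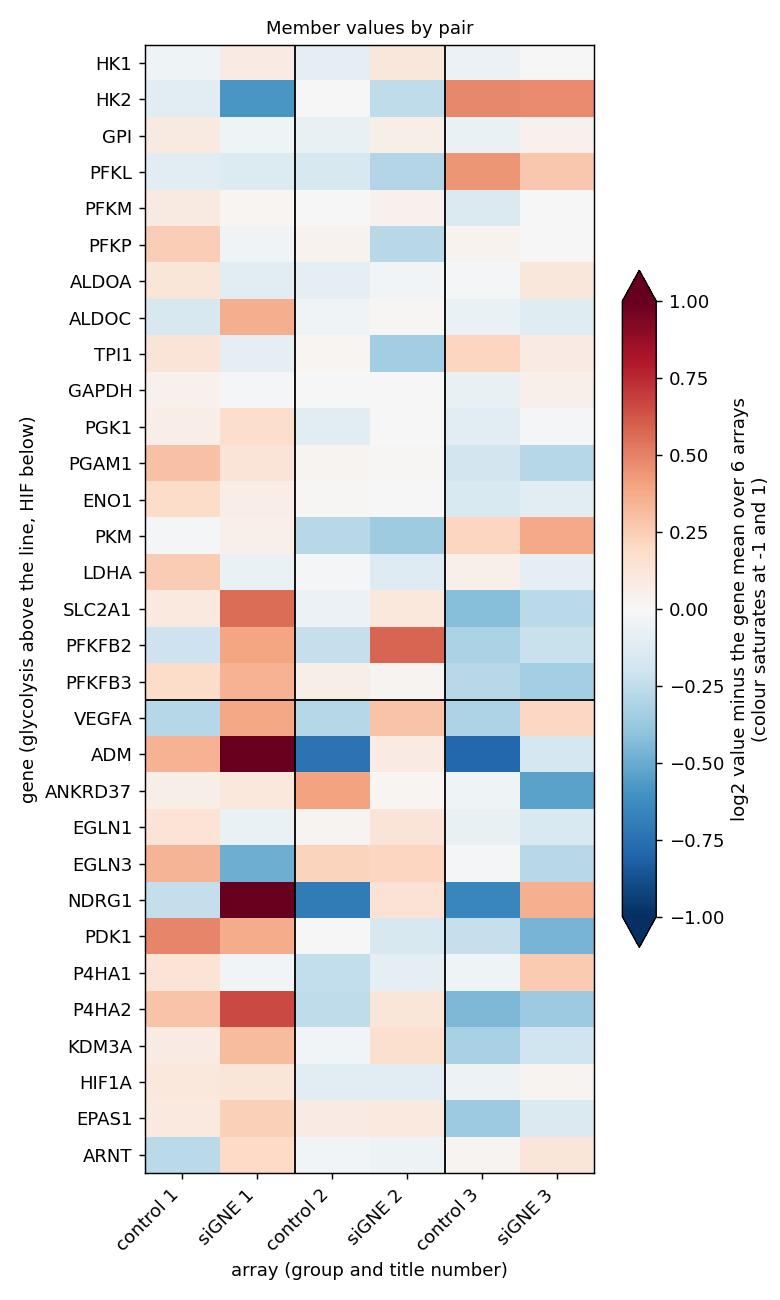
Log2 value of each tested member on each array, minus the gene's mean over the 6 arrays, with control and siGNE arrays of the same number side by side. Red is above and blue below the mean, with colour saturating at -1 and 1. ADM, PDK1 and P4HA2 are redder in both arrays of number 1, HK2 and PFKL in both arrays of number 3, and VEGFA alternates between blue control and red siGNE arrays.

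HIF binds a short core in hypoxia response elements, usually ACGTG and less often the same letters with G at the start (GCGTG), and promoter windows of the members were searched for it. RefSeq windows of 250 bases before to 50 bases after a transcription start (GRCh38.p14) were searched for 21 glycolysis genes and 13 HIF genes, with or without a probe set (CA9 and SLC16A3 are among them). Of the 3 genes that rose, ADM is among them and VEGFA and NDRG1 are not. ACGTG on either strand was in 17 of 46 glycolysis windows (37.0%) and 6 of 16 HIF windows (37.5%), against 21.4% of 35116 windows of all genes. With GCGTG included the shares were 65.2%, 68.8% and 48.4%. Some of these windows overlap, since a gene can have several starts. The windows of ADM, which rose, and of ANKRD37, PGK1 and LDHA, which did not pass, are shown to set the core motif side by side in both kinds of member. ADM lies at chr11:10304823-10305122, ANKRD37 at chr4:185396591-185396890, PGK1 at chrX:78103998-78104297 and the LDHA window at chr11:18394313-18394612, all on the plus strand. Capitals mark either form of the core on either strand.
ADM: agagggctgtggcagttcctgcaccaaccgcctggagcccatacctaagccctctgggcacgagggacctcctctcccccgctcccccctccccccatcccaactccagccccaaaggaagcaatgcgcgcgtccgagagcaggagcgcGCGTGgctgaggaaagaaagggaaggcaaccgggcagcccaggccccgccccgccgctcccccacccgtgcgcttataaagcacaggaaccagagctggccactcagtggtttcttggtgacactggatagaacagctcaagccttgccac
ANKRD37: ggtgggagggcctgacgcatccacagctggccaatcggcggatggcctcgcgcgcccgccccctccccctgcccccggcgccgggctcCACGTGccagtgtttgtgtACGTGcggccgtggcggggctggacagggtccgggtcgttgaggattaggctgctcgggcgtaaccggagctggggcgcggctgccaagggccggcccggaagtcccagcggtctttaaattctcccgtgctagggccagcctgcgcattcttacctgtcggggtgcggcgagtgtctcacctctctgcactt
PGK1: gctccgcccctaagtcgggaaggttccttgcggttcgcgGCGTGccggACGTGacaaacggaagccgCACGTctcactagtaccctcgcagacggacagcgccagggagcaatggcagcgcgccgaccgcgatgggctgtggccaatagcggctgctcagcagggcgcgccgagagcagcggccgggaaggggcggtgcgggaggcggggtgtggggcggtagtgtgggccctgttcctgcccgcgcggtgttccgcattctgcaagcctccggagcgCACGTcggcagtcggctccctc
LDHA: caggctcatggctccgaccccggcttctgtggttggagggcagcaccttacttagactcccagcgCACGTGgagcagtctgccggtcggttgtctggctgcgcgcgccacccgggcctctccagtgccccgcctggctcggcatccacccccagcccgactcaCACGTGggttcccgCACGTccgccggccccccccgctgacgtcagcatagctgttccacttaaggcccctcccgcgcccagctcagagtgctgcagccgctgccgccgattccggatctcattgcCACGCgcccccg
ADM has 1 marked stretch, ANKRD37 has 2, and PGK1 and LDHA have 4 each. These windows were picked with the values and matches known, and LDHA is shown by the richer of its 2 windows. A match describes letters, and no binding was measured here.

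Beyond the members, 72 further genes of the pathway were listed, 12 HIF regulators, 30 further HIF targets and 30 isozymes, side steps and pyruvate enzymes. Of these, 4 had no probe set, 16 had a chosen probe set too low to test and 52 were tested, and 4 rose and 5 fell in limma with the pairs (17.3%, against 9.89% of all genes). These lists too were chosen with earlier results of these data known, so the share is no evidence of an excess. None of the 9 tested HIF regulators, VHL, HIF1AN, CUL2, ELOB, ELOC, RBX1, CITED2, EP300 and CREBBP, passed. VHL, the ubiquitin ligase subunit that recognises hydroxylated HIF, differed by -0.28 (limma adjusted p = 0.371), and HIF1AN, the asparagine hydroxylase that blocks HIF activity, by 0.12 (limma adjusted p = 0.386). CITED2, an inhibitor of HIF and itself a HIF target, was nearest, at 0.35 with a limma adjusted p of 0.0634.

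Of the 22 further HIF targets tested, 2 rose and 2 fell, and the median difference was -0.09. DDIT4, an inhibitor of mTORC1 signalling, read 12.44, 12.46 and 12.55 in control arrays and 13.18, 13.29 and 13.50 in siGNE arrays. The groups did not overlap, as for 9.42% of all tested genes in this direction, and DDIT4 rose by 0.84 (SE 0.09, limma adjusted p = 0.0244). CA12, a membrane carbonic anhydrase, read 9.54, 9.86 and 9.27 against 10.12, 10.63 and 9.90 and rose by 0.66 (limma adjusted p = 0.0298). GBE1, the branching enzyme of glycogen synthesis, read 10.47, 9.85 and 9.83 against 9.22, 9.25 and 9.10. Its groups did not overlap either, as for 13.9% of all tested genes with siGNE below, and GBE1 fell by 0.86 (limma adjusted p = 0.0411). TMEM45A, a membrane protein gene, fell by 0.48 (limma adjusted p = 0.0459), with 7.79, 7.15 and 6.67 in control arrays and 7.23, 6.61 and 6.33 in siGNE arrays, which overlapped.

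Of the 21 tested isozymes, side steps and pyruvate enzymes, 2 rose and 3 fell. HKDC1, a hexokinase outside the classical set, read 9.28, 9.42 and 9.51 in control arrays and 10.32, 10.24 and 10.69 in siGNE arrays. All siGNE arrays stood above all control arrays, as for 9.42% of all tested genes. HKDC1 rose by 1.02 (SE 0.11, limma adjusted p = 0.0242), as did its 3 other probe sets, by 0.98, 1.15 and 1.12. Beside it HK1 differed by 0.13 and HK2 by -0.24, and these differences between genes were not tested. SLC2A12, a glucose transporter, fell by 0.59 (limma adjusted p = 0.0381), from 7.46, 7.36 and 7.26 to 6.91, 6.90 and 6.51.

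The remaining 3 act on the entry of pyruvate into the mitochondrion or on the pyruvate dehydrogenase complex. MPC1, a subunit of the mitochondrial pyruvate carrier, read 8.60, 8.63 and 8.05 in control arrays and 9.29, 9.17 and 8.53 in siGNE arrays and rose by 0.57 (limma adjusted p = 0.0359). Its partner MPC2 differed by 0.04 (95% interval -0.21 to 0.29). PDK4, a kinase that switches the pyruvate dehydrogenase complex off, fell by 0.54 (limma adjusted p = 0.0411), from 7.74, 8.43 and 8.20 to 7.05, 7.95 and 7.75. PDP1, the phosphatase that switches the complex on, fell by 0.60 in each of the 3 pairs (limma adjusted p = 0.0294), from 10.10, 10.39 and 10.49 to 9.50, 9.79 and 9.89. Another PDP1 probe set of lower signal was less even, at -1.24, -0.18 and -0.46 in the pairs. It differed by -0.62 and did not pass (limma adjusted p = 0.133). Thus a kinase and a phosphatase of the same complex both had lower transcript levels. The kinases PDK2 (0.12) and PDK3 (-0.36) did not pass, although 2 other PDK3 probe sets fell, by 0.86 and 0.60 (limma adjusted p = 0.0242 and 0.0386). Over all the further genes, 55 other probe sets could be tested, of which 6 rose and 6 fell (9.49% of all tested probe sets passed), and the falls belonged to ELOB, WSB1, PDHB, PDK3 and SLC16A7, whose chosen probe sets did not pass. Without the pair term none of the 9 genes named as passing passed in limma, with adjusted p from 0.0858 for DDIT4 to 0.622 for TMEM45A.

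**Figure D4:**
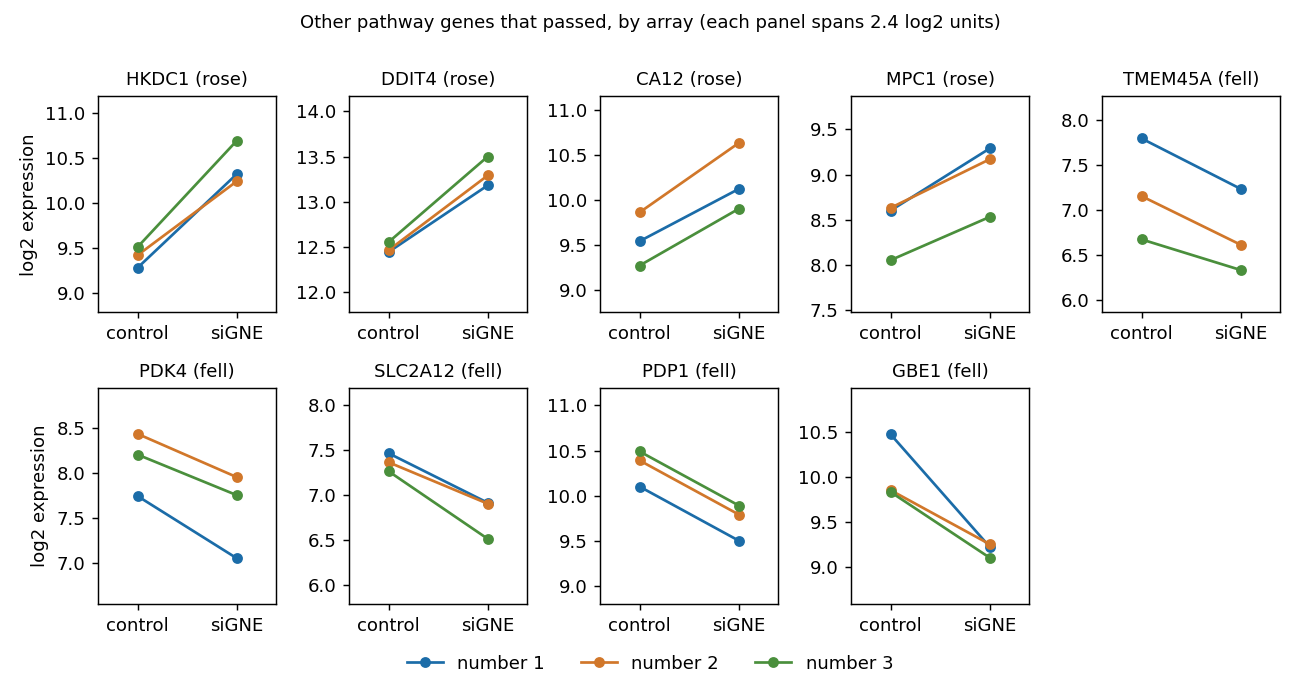
Log2 expression on each array of the 9 further pathway genes that passed, ordered from HKDC1 with the largest rise to GBE1 with the largest fall. Lines join arrays of the same title number, and every panel spans the same 2.4 log2 units. All 3 lines run the same way in every panel, and the 3 lines of PDP1 are parallel, each falling by 0.60.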

How the data were processed

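Expression was measured on 6 Affymetrix arrays, 3 of siGNE and 3 of control cells, from biotinylated cRNA made of 300 ng total RNA. In the deposited table each array has log2 expression values of 54675 probe sets, made by the authors with GCRMA per the submitters' processing notes. The sources used here give no GCRMA version or chip definition and do not say if the arrays went through it in a single run. Values from 0.612 to 16.3 show the log2 scale, and they were used as deposited. With arrays, the number of samples rather than depth limits the precision.

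Gene names came from the platform's annotation table, 41097 probe sets with 1 gene, 1801 with several and 11777 with none, and symbols were updated by gene identifier through RefSeq (GRCh38.p14), which held 41043 of the 41097. Control probe sets, 62 in all, were left out, those for GAPDH included.

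limma 3.58.1 in R 4.3.3 (lmFit, eBayes) was fitted on the 22085 probe sets with a mean above 4, siGNE minus control with the title number as a block, and Benjamini-Hochberg adjustment covered all of them. The fit was also run on data simulated from its own model with independent noise, which cannot show that the calls made here are sound. The block was kept because deviations from the group means correlated at 0.58, 0.71 and 0.83 in the 3 same-number pairs, above the limit of 0.1, and from -0.64 to 0.17 otherwise. Unlike numbers also passed that limit, at 0.14 and 0.17, so the limit alone does not tell matched from unmatched arrays. Deviations cancel within a group, so the negative values are no separate evidence. The block leaves 2 residual degrees of freedom. The pairing rests on the titles and this check. The labels do not state that replicate arrays are separate cultures, so the p-values cover the spread between these samples only, and it may be technical. The members and lists were chosen with earlier results of these data known.

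The rule named, with values on every array, the members and further pathway genes that passed and HIF1A, EPAS1, ARNT, SLC2A1, HK2, PFKFB3, PFKFB4, PDK1 and LDHA. PFKFB2's array values, TPI1, PGK1 and other members named with less were picked after their values were seen. So were the named further genes that did not pass and the other probe sets. Alternatives were a fit with no block, every probe set kept, only means above 6, values raised to at least 4, quantile and median scaling, trended and robust variances, array weights, the mean of a gene's probe sets, an adjusted p under 0.1 and leaving out each pair.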

Additional observations from a re-analysis of the deposited data

How the results depend on the processing

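The 3 rises of HIF genes fell to 0 without the replicate block, with no filter and without replicate 1, 2 or 3, where both arrays of a number were left out. So did the 4 rises and 5 falls of the other pathway genes. No probe set of the series passed with no filter or with a pair left out, and 5022 to 5529 had an unadjusted p under 0.05 in limma with a pair left out, where 1 residual degree of freedom remains, so these 0 counts say little about stability. The differences kept their direction in all these fits, with a pair left out at 0.55 to 0.62 for VEGFA, 0.71 to 0.87 for ADM and 0.92 to 1.17 for NDRG1, and over the 12 alternatives their limma adjusted p ran from 0.00952 to 0.144, 0.0109 to 0.532 and 0.00855 to 0.176. All 3 passed under the other 7 alternatives run for single genes. CA12 differed by 0.37, MPC1 by 0.29 and SLC2A12 by -0.38 in the mean of all probe sets per gene, and PDK4, at -0.32, did not pass there.

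GNE, at -1.88, did not pass without the replicate block (limma adjusted p = 0.131) or with no filter (limma adjusted p = 0.265), and with a pair left out it ran from -2.17 to -1.45. Among glycolysis genes, 1 (TPI1, at -0.24) fell with trended and robust variances, and 1 (PKM, at 0.44) rose in the mean of all probe sets per gene, which includes the PKM probe set that rose. The falls among the other pathway genes numbered 8 in the mean of all probe sets per gene and 8 at an adjusted p under 0.1. The median difference of the HIF genes, 0.13, was 0.15 with a mean above 6, 0.17 with median centring, 0.06 in the mean of all probe sets per gene and 0.08 to 0.18 with a pair left out. Genes that passed in neither fit changed sign in 16 of 331 comparisons with an alternative, and no gene that passed changed sign. Centring moved the median of all tested probe sets from -0.01 to 0.03.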
